A study of Mus musculus with 12 samples.

Results

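The genes described here are 9 pacemaker and conduction system genes of the mouse heart: the pacemaker channel genes *Hcn2*, *Hcn3* and *Hcn4*, the sinus node transcription factor genes *Tbx3*, *Shox2* and *Isl1*, the conduction system regulators *Irx3* and *Id2*, and the conduction system marker *Cntn2*. They were taken by name, and all 9 were found among the 54658 gene names of the RNA-sequencing counts. The counts came from the left atria (LA) of 6 control mice and 6 iNICD mice, each LA forming its own library. Control mice carried *αMHC-rtTA*, whose promoter expresses the transactivator in cardiomyocytes. iNICD mice carried *αMHC-rtTA* together with *tetO_NICD*, which places the intracellular domain of Notch1 under control of the transactivator and doxycycline. The mice, of both sexes (4 female and 2 male controls, 3 female and 3 male iNICD mice) and of a mixed genetic background, were 2 to 3 months old and received doxycycline chow for 3 weeks without washout. The transactivator and the drug were therefore shared by both groups, and the groups differed by the Notch transgene. The right atrium, which holds the sinus node, was not analysed here.

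HCN channels carry the hyperpolarization-activated "funny" current, an inward current that depolarizes pacemaker cells between beats and is increased by cyclic AMP. In the sinus node, Shox2, Isl1 and Tbx3 maintain the pacemaker program, and Tbx3 represses genes of the working myocardium such as those for natriuretic peptide A and the fast-conducting connexins. In the fast conduction system of the ventricles, Irx3 and Id2 take part in the specification and function of the His-Purkinje fibers, and Cntn2, a neuronal cell adhesion protein, marks their cells. Working atrial cardiomyocytes normally have little of the nodal program.

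Between 21555678 and 26902478 reads were counted on genes in the control libraries and between 21432632 and 27182038 in the iNICD libraries. *Notch1*, whose coding sequence the transgene shares, lay between 108 and 131 normalized CPM (CPM, read counts scaled to a common library size) in the controls and between 2975 and 4077 in the iNICD libraries, as labeled. The ventricular light chain gene *Myl2* was at most 3.22 normalized CPM in any library and *Irx4* had 0 counts in all 12. Of the other ventricular markers *Hey2* and *Myl3* did not exceed 3.39 normalized CPM, but *Myh7* lay between 958 and 2230 in 8 libraries (control replicates 3 to 6 and iNICD replicates 1, 3, 4 and 5) and between 13.1 and 29.6 in the other 4. The summed atrial markers lay between 34240 and 44030 normalized CPM in controls and between 9269 and 16600 in iNICD libraries. *Nppa* made up most of the control sum and had an iNICD-to-control ratio of means of 0.199, against 0.641 for *Sln*, 0.687 for *Myl7* and 0.594 for *Myl4*. The remaining atrial marker, *Bmp10*, had a ratio of 0.223 on low and uneven levels, with 31.6 normalized CPM in control replicate 2 and 10.1 in iNICD replicate 2. Control replicate 5 stood apart: 1220 tested genes differed at least 2-fold from the mean of its group, against 126 to 310 in the other 11 libraries. The summed cardiomyocyte markers lay between 49420 and 54240 normalized CPM in controls and between 45550 and 51540 in iNICD libraries. Their ratios of means were 0.978 for *Myh6*, 1.05 for *Ryr2*, 0.921 for *Actn2*, 0.922 for *Ttn* and 0.735 for *Tnnt2*. The cause of these differences was not tested. In bulk tissue, fewer cells of a type and less RNA per cell cannot be told apart.

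None of the 9 genes passed the test for a difference between iNICD and control LA. Of the 9, 5 (*Hcn2*, *Tbx3*, *Shox2*, *Irx3* and *Id2*) exceeded 1 CPM in at least 6 libraries and were tested, and 4 (*Hcn3*, *Hcn4*, *Isl1* and *Cntn2*) did not. By edgeR's quasi-likelihood test, with p-values adjusted after Benjamini and Hochberg for the 13541 genes tested, 0 of the 5 were under 0.05, where 4.12% of all tested genes were. At an unadjusted p under 0.05 there was 1 of the 5, *Hcn2*, against 17.4% of all tested genes. DESeq2 called 1 of the 5, *Hcn2*, which was higher in iNICD LA, against 7.84% of the genes to which it gave an adjusted p, 4.55% being higher. Without control replicate 5, 0 of the 5 passed in edgeR. The control and iNICD libraries overlapped for all 9 genes, while 3.83% of the tested genes had no overlap. The median log2 fold change of the 5 was -0.08, compared with -0.01 over all tested genes.

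**Figure D1:**
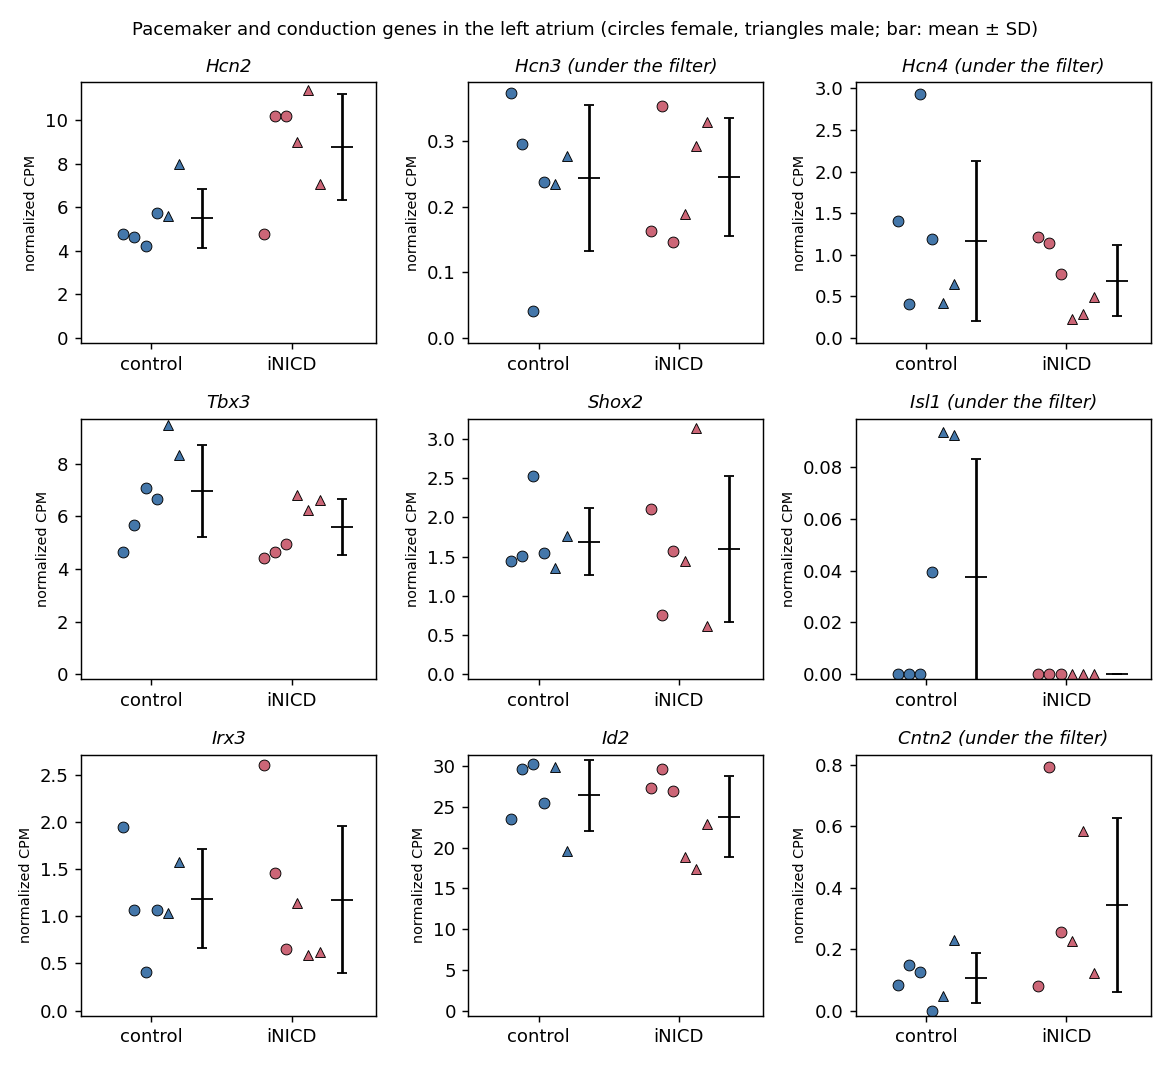
Normalized CPM (vertical axes, linear from 0) of the 9 genes in each of the 6 control and 6 iNICD LA libraries; circles are female and triangles male mice, and the bars give the mean and SD of the group, cut off at 0 for *Isl1*. The groups overlap in every panel; *Hcn2* has 4 iNICD libraries above all controls, and *Isl1* is at 0 in all 6 iNICD libraries.

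Levels were compared between genes per kilobase of exon. In the control LA, *Id2* was the highest of the 9 at 10.8 ± 1.77 normalized CPM per kb (SD, n = 6), above 87.3% of the gene names with any count, and no control library of another member reached its lowest value. *Hcn2* followed at 1.72 ± 0.426, *Tbx3* at 1.05 ± 0.264, *Shox2* at 0.510 ± 0.130 and *Irx3* at 0.428 ± 0.190 normalized CPM per kb. The lowest levels were those of *Hcn4* at 0.191 ± 0.157, *Hcn3* at 0.0585 ± 0.0267, *Cntn2* at 0.0113 ± 0.00874 and *Isl1* at 0.00950 ± 0.0115 normalized CPM per kb. From *Hcn2* downward, each gene's range overlapped that of the next in the controls. Ranges do not compare genes within a library, so this overlap does not show that neighbors were alike. Within libraries, *Hcn2* was above *Tbx3* and *Tbx3* above *Shox2* in every control, while the order of the later neighbors varied between controls. The order of the means was the same in the iNICD LA, where the ranges of *Hcn2* and *Tbx3* also did not overlap, nor did those of *Irx3* (lowest 0.212) and *Hcn4* (highest 0.199) or those of *Cntn2* and *Isl1*.

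Promoter windows from the RefSeq table used here were matched for 7 of the 9 genes. The 250 bases before the RefSeq start (GRCm38.p6) were searched on both strands for the core of the RBPJ motif (TGGGAA), through which Notch acts on its targets, the E-box bound by Hes and Hey factors (CACGTG) and the N-box (CACNAG). The RBPJ core was found in 2 of the 7, *Shox2* and *Irx3*, once each, where 21.6% of all 32841 windows hold it. The E-box was found in 0 of the 7 (6.0% of all windows) and the N-box in 1, *Cntn2* (36.7% of all windows). RefSeq starts can differ from the GENCODE starts used for the gene positions: the windows of *Irx3*, *Id2* and *Cntn2*, and with them the *Irx3* match, lie inside the GENCODE gene. A match is a description of the letters and not evidence of binding. The matches in *Shox2* (chr3:66981845-66981874, minus strand) and *Irx3* (chr8:91801719-91801748, minus strand) are shown with the core in capitals, as read on the gene's strand, because they are the only windows of the 7 that hold it. The window of *Hcn2* (chr10:79716384-79716633, plus strand) is shown because *Hcn2* had the largest log2 fold change among the 5 tested members; it holds none of the 3 motifs and has 70.4% G and C.
Shox2 site: gggaagcatcagTTCCCAtttccctctggc
Irx3 site: aagaaccgcagtTTCCCAgcgtccaggact
Hcn2 window: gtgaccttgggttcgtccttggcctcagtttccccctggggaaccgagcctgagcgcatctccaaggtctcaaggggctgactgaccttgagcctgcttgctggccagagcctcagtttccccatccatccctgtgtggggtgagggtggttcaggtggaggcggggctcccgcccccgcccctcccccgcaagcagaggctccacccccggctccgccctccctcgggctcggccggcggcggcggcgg

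*Hcn2* was the most abundant of the 3 HCN channel transcripts and the member with the largest difference among those tested. The gene spans 79716634 to 79736108 of chromosome 10 (GRCm38, mm10, GENCODE M21, as for the other gene positions). The control libraries ranged from 4.22 to 8.01 normalized CPM (median 5.19) and the iNICD libraries from 4.79 to 11.4 (median 9.58), on 102 to 279 counts per library. Of the 6 iNICD libraries, 4 lay above all controls, iNICD replicate 6 lay below only the highest control, and iNICD replicate 1 lay above 3 of the controls and below the other 3. The fitted log2 fold change was 0.67 ± 0.21 (SE), its 95% interval running from 0.21 to 1.13. The adjusted p was 0.108 in edgeR's quasi-likelihood test and 0.0385 in DESeq2. Taken as a single gene, *Hcn2* had p = 0.0260 in a two-sided exact permutation test with 6 libraries per group. Without iNICD replicate 1 the log2 fold change was 0.80 and the gene passed (edgeR adjusted p = 0.0345). By the edgeR adjusted p it did not pass when any 1 of the other 11 libraries was left out. The exact permutation p, which is not adjusted for the number of genes, ranged from 0.00649 to 0.0476 over the 12 libraries left out in turn.

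*Hcn4* encodes the principal pacemaker channel of the sinus node, and its transcript was scarce and variable in these atria. It lies on chromosome 9 from 58823412 to 58863175. It had 6 to 71 counts per library, and 5 libraries exceeded 1 CPM, 1 short of the filter. Control values ran from 0.406 to 2.94 normalized CPM (median 0.916) and the iNICD libraries from 0.227 to 1.22 (median 0.629). Control replicate 3 held the highest value, while 2 iNICD libraries lay below all controls. The difference in mean log2(normalized CPM + 1) was -0.30 (two-sided exact permutation test, p = 0.314), and -0.10 without control replicate 3 (exact p = 0.632). A fit without the filter, in which 1.68% of 29835 genes passed, gave a log2 fold change of -0.76 with a 95% interval from -1.86 to 0.33 (edgeR adjusted p = 0.553). That interval holds both no difference and a fall of more than 3-fold, which could not be told apart with these libraries.

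*Hcn3*, on chromosome 3 from 89146074 to 89160196, was close to the limit of detection. It had 1 to 9 counts per library and 0 libraries above 1 CPM. Control values ran from 0.0414 to 0.373 normalized CPM (median 0.257) and the iNICD libraries from 0.146 to 0.353 (median 0.241), so that all iNICD values lay within the control range (exact permutation p = 0.957). Its 3′ end shares 711 exonic bases with *Pklr* on the opposite strand, which had at most 1 count.

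The make-up of these HCN transcripts was then compared within each library, as the share of each in the sum of *Hcn2*, *Hcn3* and *Hcn4* per kilobase of exon, which does not depend on how libraries are scaled. *Hcn2* made up 72.9% to 93.6% (median 89.6%) of the sum in the controls and 86.3% to 97.1% (median 94.2%) in the iNICD libraries. The difference in mean share was 6.59 percentage points (two-sided exact permutation test, p = 0.0887), 8.03 without iNICD replicate 1 (exact p = 0.0390) and 3.80 without control replicate 3 (exact p = 0.180). The share of *Hcn4* ranged from 3.66% to 26.5% (median 6.82%) in the controls and from 1.28% to 11.5% (median 3.57%) in the iNICD libraries (exact p = 0.160). Its difference in mean share of -5.65 percentage points was -2.36 without control replicate 3, which held the highest share. *Hcn3* had a median share of 2.89% in the controls and 2.08% in the iNICD libraries (exact p = 0.212), on 1 to 9 counts per library. Its difference in mean share of -0.94 percentage points was -1.44 without control replicate 3 (exact p = 0.0368) and -0.56 without control replicate 1 (exact p = 0.426). The groups overlapped for all 3 shares, which sum to a fixed total and are not independent of each other. The summed level of the 3 transcripts ranged from 1.59 to 2.68 normalized CPM per kb (median 1.85) in the controls and from 1.74 to 3.68 (median 3.12) in the iNICD libraries (exact p = 0.0281), and *Hcn2* was the largest part of it in every library.

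**Figure D2:**
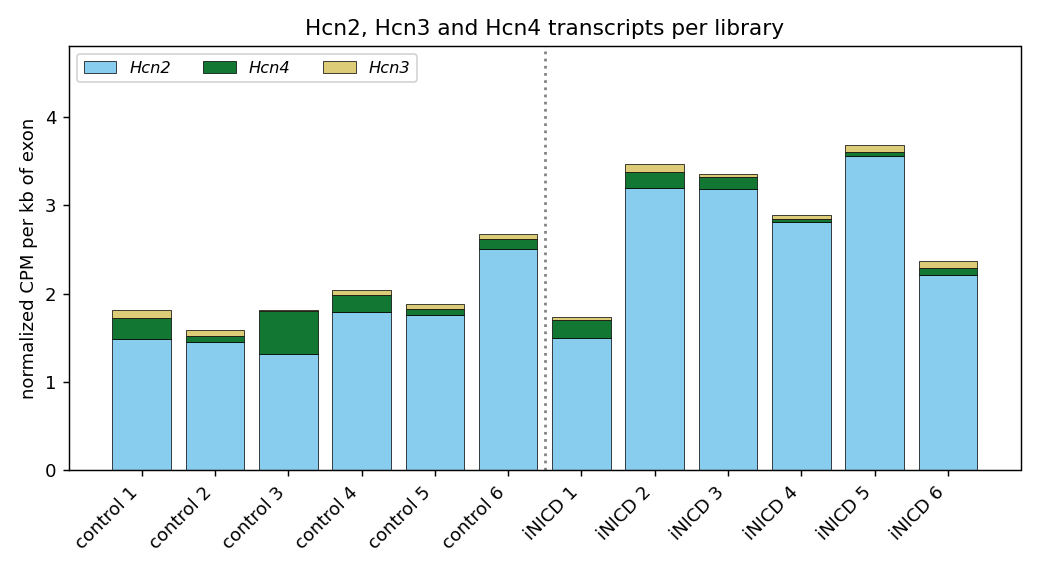
Stacked bars of the levels of *Hcn2*, *Hcn4* and *Hcn3* in normalized CPM per kb of exon (vertical axis, from 0) in each library, controls left and iNICD right of the dotted line. *Hcn2* is the largest part in every library, and control replicate 3 has the largest *Hcn4* part (26.5%).

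Among the sinus node transcription factors, *Tbx3*, which encodes a T-box repressor of the working myocardial program, was the best measured, with 105 to 202 counts per library. It lies on chromosome 5 from 119670669 to 119684724. Control libraries ranged from 4.64 to 9.45 normalized CPM (median 6.86) and the iNICD libraries from 4.43 to 6.82 (median 5.58). All 6 iNICD libraries lay below the control median, and 2 lay below all controls. The log2 fold change of *Tbx3* was -0.31 ± 0.18 (SE), its 95% interval running from -0.70 to 0.08 (edgeR adjusted p = 0.402), and it did not pass. *Tbx3* was higher in males than in females of both groups: 4.64 to 7.07 normalized CPM in the 4 female and 8.33 and 9.45 in the 2 male controls, 4.43 to 4.93 in the 3 female and 6.23 to 6.82 in the 3 male iNICD libraries. With sex as a covariate the log2 fold change was -0.40 ± 0.11 (SE), with an unadjusted p of 0.00463 and an edgeR adjusted p of 0.0727, so that it still did not pass. The highest control was replicate 5, without which the log2 fold change was -0.21. As a single gene *Tbx3* had p = 0.154 in the exact permutation test, and p = 0.0476 without control replicate 1, the lowest control. The antisense gene *Tbx3os1* shares 115 bases of exon with *Tbx3* and had 19 to 57 counts.

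*Shox2* encodes a homeobox factor that keeps sinus node cells from taking on a working atrial identity. It lies on chromosome 3 from 66971727 to 66981771 and had 15 to 75 counts per library. The controls ranged from 1.36 to 2.52 normalized CPM (median 1.53) and the iNICD libraries from 0.615 to 3.13 (median 1.504). The iNICD values enclosed the control range, with 2 libraries below and 1 above all controls. The log2 fold change of *Shox2*, -0.08 ± 0.35 (SE, 95% interval from -0.82 to 0.67), was within the spread between replicates (edgeR adjusted p = 0.934). The promoter window of *Shox2* is one of those with the RBPJ core shown above. *Rsrc1*, with 473 to 741 counts, overlaps 153 exonic bases of *Shox2* on the opposite strand. The reads were stranded but the strand setting of the counting is not given in the sources used here, so the part of such reads in the *Shox2* counts was not tested.

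*Isl1*, on chromosome 13 from 116298281 to 116309689, encodes a LIM homeodomain factor of cardiac progenitors and sinus node cells and was hardly detected, at 5 counts over all libraries. It had 0 counts in 9 of the 12 libraries. Control replicate 4 had 1 count, control replicates 5 and 6 had 2 each, and all 6 iNICD libraries had 0. A count of 0 over the iNICD group allows up to 3 counts, or 0.0201 normalized CPM, and the control mean was 0.0376 ± 0.0456 normalized CPM (SD, n = 6, exact permutation p = 0.182). With counts in only 3 libraries, all of 1 group, no split could give a lower p. The test therefore cannot decide whether *Isl1* differed. No fold change is given for these counts.

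*Irx3*, on chromosome 8 from 91798525 to 91802067, encodes an Iroquois homeobox factor that promotes fast conduction in the Purkinje fibers. It had 10 to 64 counts per library. The 6 controls ranged from 0.414 to 1.95 normalized CPM (median 1.07) and the iNICD libraries from 0.585 to 2.60 (median 0.897). Replicate 1 was the highest library in each group, and the groups overlapped almost entirely. The log2 fold change of *Irx3* was -0.01 ± 0.42 (SE, edgeR adjusted p = 0.993). Its 95% interval from -0.92 to 0.90 holds changes of almost 2-fold either way, which could not be told apart from no change with these libraries. *Irx3* is the other member with the RBPJ core shown above. The antisense gene *Irx3os* shares 124 exonic bases with *Irx3* and had at most 8 counts. Among the other Iroquois genes, *Irx5* was tested and had a log2 fold change of -0.24 (edgeR adjusted p = 0.583), and *Irx1*, *Irx2*, *Irx4* and *Irx6* did not reach the filter.

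*Id2*, on chromosome 12 from 25093799 to 25097140, encodes an inhibitor of basic helix-loop-helix factors that is also expressed widely outside the conduction system. With 415 to 805 counts per library it was the most precisely measured member. The controls ranged from 19.6 to 30.2 normalized CPM (median 27.6) and the iNICD libraries from 17.3 to 29.7 (median 24.9). Of the iNICD libraries, 2 lay below all controls. The log2 fold change of *Id2* was -0.15 ± 0.15 (SE), with a 95% interval from -0.47 to 0.17 (edgeR adjusted p = 0.644). It ranged from -0.23 without control replicate 6 to -0.08 without iNICD replicate 5. Of its 3 paralogs, 2 were lower in the iNICD LA, where 1.34% of all tested genes were: *Id1* fell by 0.95 on the log2 scale (SE 0.24, edgeR adjusted p = 0.0411) and *Id3* fell by 0.42 (SE 0.10, edgeR adjusted p = 0.0271), while *Id4* had a log2 fold change of -0.16 (edgeR adjusted p = 0.743). Both calls were close to the threshold; *Id1* passed in 2 of the 12 fits that left out 1 library (control replicate 1 or iNICD replicate 5) and *Id3* in 5 (control replicate 1, 3, 5 or 6 or iNICD replicate 2). Whether the change of *Id2* differed from those of *Id1* and *Id3* was not tested.

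*Cntn2*, on chromosome 1 from 132509427 to 132543256, had 0 to 5 counts per control library and 2 to 18 per iNICD library. The controls ranged from 0 to 0.231 normalized CPM (median 0.103) and the iNICD libraries from 0.0812 to 0.794 (median 0.241). The highest values were those of iNICD replicates 2 and 5, and 3 iNICD libraries lay above all controls. The difference in mean log2(normalized CPM + 1) was 0.26 (p = 0.0649, two-sided exact permutation test). It passed when control replicate 6 or iNICD replicate 1 or 6 was left out, with differences of 0.29, 0.32 and 0.31. Without iNICD replicate 2, the highest library, the difference was 0.17 (exact p = 0.0996), and over the 12 libraries left out in turn the exact p reached 0.143, without control replicate 4. The fit without the filter gave a log2 fold change of 1.65 with a 95% interval from 0.30 to 3.01. That value had an unadjusted p of 0.0201, where 11% of the genes in that fit were under 0.05, and an edgeR adjusted p of 0.308. Since *Cntn2* is also a gene of neurons, markers of other cells were read beside it. The summed level of 7 neuronal markers lay between 6.16 and 13.8 normalized CPM (median 6.54) in the controls. In the iNICD libraries it lay between 5.29 and 11.5 (median 9.50). Most of the sum came from *Uchl1* (mean 4.37 in controls and 5.62 in iNICD libraries) and *Stmn2* (2.53 in both). *Dbh* (0.537 and 0.221), *Prph* (0.373 and 0.205) and *Tubb3* (0.511 and 0.324) had lower means in the iNICD libraries. The sum was 9.26 and 9.78 in iNICD replicates 2 and 5, below that of iNICD replicate 3 (11.5). *Chrna3* had 0 counts in all libraries and *Snap25* did not exceed 0.125 normalized CPM. The summed level of 6 Schwann cell markers lay between 59.0 and 75.8 normalized CPM in the controls and between 57.0 and 67.0 in the iNICD libraries. Their part in the *Cntn2* counts was not tested.

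**Figure D3:**
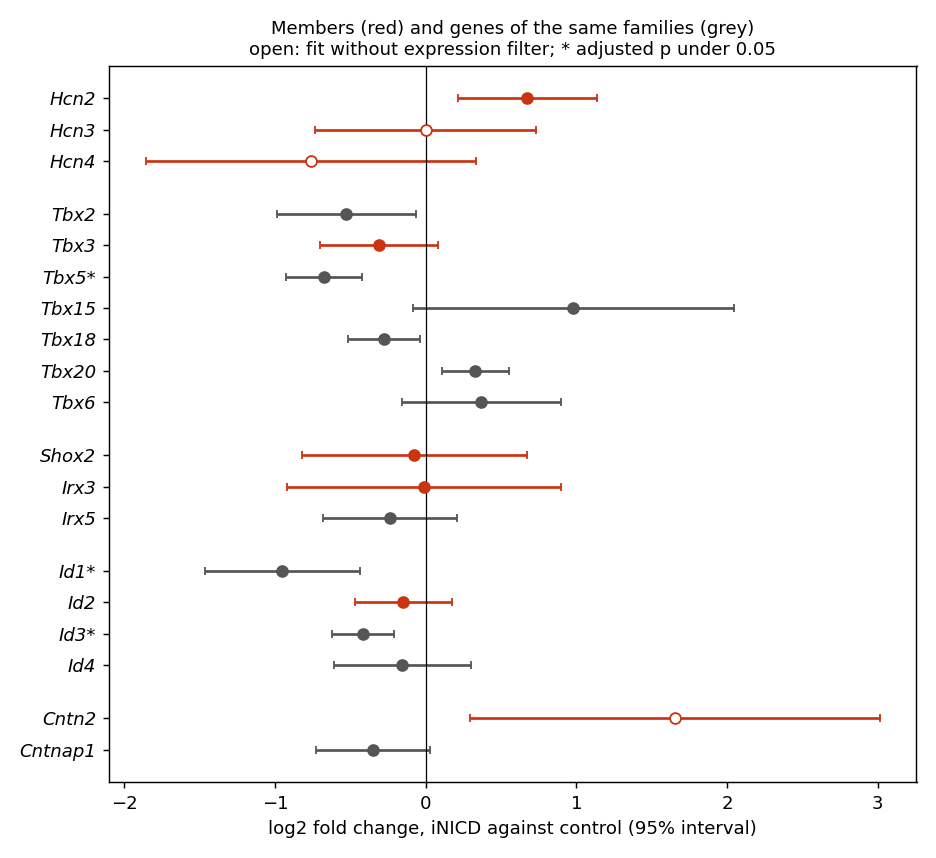
Log2 fold change of iNICD against control LA with its 95% interval (horizontal axis) for the members (red) and the further tested genes of their families (gray). *Cntnap1*, beside *Cntn2*, encodes a contactin-associated protein and not a contactin. Open symbols come from the fit without an expression filter, asterisks mark an edgeR adjusted p under 0.05, and *Isl1*, with 0 counts in one group, is left out. The intervals of *Tbx3*, *Shox2*, *Irx3*, *Id2*, *Hcn3* and *Hcn4* include 0, and the open symbol of *Cntn2* is farthest from 0 at 1.65.

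Further genes of the pacemaker and conduction programs were read from lists of their own. Of 15 other sinus node genes, all tested, 1 rose and 0 fell, and the median of their log2 fold changes was -0.10; 2.78% of all tested genes rose. The gene that rose was *Vsnl1*, which encodes a neuronal calcium sensor protein found in sinus node cells. Its levels were 1.26 to 7.03 normalized CPM in the controls and 18.9 to 47.0 in the iNICD libraries, a difference of 2.63 ± 0.32 (SE) on the log2 scale (edgeR adjusted p = 3.96e-04). The node genes *Tbx18* (log2 fold change -0.28, edgeR adjusted p = 0.203), *Cacna1d* (-0.58, edgeR adjusted p = 0.349), *Bmp4* (0.02, edgeR adjusted p = 0.981) and *Gjc1* (0.15, edgeR adjusted p = 0.532) did not pass, and were named after their values were seen. Of 14 other conduction system genes, 13 were tested; 1 rose and 2 fell, with a median of 0.00, and 1.34% of all tested genes fell. *Erbb4*, a neuregulin receptor, had a log2 fold change of 0.68 (edgeR adjusted p = 0.0378), *Tbx5*, a T-box activator of conduction genes, one of -0.67 (edgeR adjusted p = 0.00494), and *Scn10a*, a sodium channel gene, one of -1.52 (edgeR adjusted p = 0.0347). Of 11 other T-box genes 6 were tested, and *Tbx5* was the 1 that fell. Of 7 genes of the working myocardium, all tested, 1 fell: *Nppa*, which encodes natriuretic peptide A and is a target of Tbx3, fell by 2.33 on the log2 scale (edgeR adjusted p = 3.39e-04). Of 7 genes for other contactins and for contactin-associated proteins, only *Cntnap1*, named for that reason, was tested, with a log2 fold change of -0.35 (edgeR adjusted p = 0.321). It encodes a contactin-associated protein, and none of the other contactin genes reached the filter. Of 8 genes for partners and regulators of HCN channels, 7 were tested and 1 rose: *Mrvi1*, which encodes the inositol trisphosphate receptor-associated protein IRAG, a regulator of Hcn4, had a log2 fold change of 1.26 (edgeR adjusted p = 0.0372). Of these, *Vsnl1* and *Tbx5* passed in all 12 fits that left out 1 library. *Erbb4* passed in 4 (without control replicate 5 or 6 or iNICD replicate 5 or 6), *Scn10a* in 3 (control replicate 3 or 5 or iNICD replicate 2) and *Mrvi1* in 3 (control replicate 1, 5 or 6).

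Set among all tested genes, the 5 members lay among the genes that did not pass. Their mean levels over both groups were below 30 normalized CPM, and *Irx3* and *Shox2* stood near the lower limit of the filter.

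**Figure D4:**
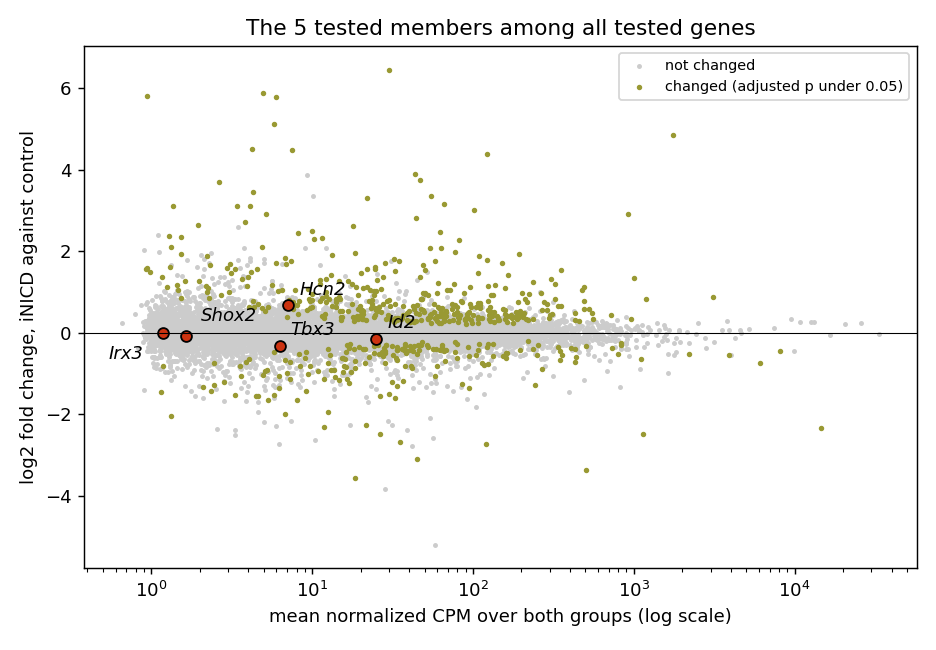
Log2 fold change of iNICD against control (vertical axis) over mean normalized CPM (horizontal axis, log scale) for the 13541 tested genes; the 558 changed genes are olive, the others light gray, and the 5 tested members red. *Hcn2* is the highest of the 5 at 0.67 and *Tbx3* the lowest at -0.31.

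The levels were also read by sex. The log2 fold change of *Hcn2* was 0.80 in females alone and 0.42 in males alone, that of *Tbx3* -0.36 and -0.45, and that of *Id2* 0.04 and -0.34. The 3 male iNICD libraries had the lowest *Id2* of their group, and also the lowest *Hcn4*, but the highest *Tbx3*. A fit with terms for sex, genotype and the sex-by-genotype interaction gave no tested member an interaction at an adjusted p under 0.05 (edgeR's quasi-likelihood test; lowest adjusted p 0.916 among the 5, lowest unadjusted p 0.153, for *Id2*), and 0% of all tested genes had one; DESeq2 was not run for the interaction.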

How the data were processed

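Stranded single-end reads of 12 ribosomal RNA-depleted LA libraries were aligned by the authors, and the deposited values are raw, unnormalized read counts for each gene name. Per the labels, STAR 2.4.2a and featureCounts on mm10 were used, the paper also describes TopHat2 with HTSeq, and the table does not name its route. A length in bases per gene, another unit, was also deposited, and equaled the exon union of GENCODE M21 (GRCm38, source of the gene positions; promoter windows are from RefSeq) for the 9 genes.

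Groups, replicate numbers and sex were taken from the labels. No 2 libraries of a group were copies (lowest chi-square per gene 16.7), and p-values measure the spread between mice. Genes above 1 CPM in at least 6 libraries were tested with edgeR 4.0.16 (TMM, quasi-likelihood, two-sided, threshold 0.05) in R 4.3.3, after a check on simulated counts. Standard errors are those implied by the F statistic. Counts were divided by the TMM-scaled total of tested genes for normalized CPM. A single gene was also tested by exact permutation over 924 splits, with a pseudocount of 1 on the log2 scale. The smallest p is 0.00216, but 0.182 for *Isl1*, whose counts were mostly 0. The limit of 3 counts for a count of 0 covers counting error only. Alternatives used DESeq2 1.42.0, other normalizations, filters, covariates and sets of libraries; the sex interaction was added after seeing the data. Figures and promoter searches used Python 3.11.15.

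Some planned results are not reported here, so HCN shares were taken over the 3 members and lists given without some genes, both decided after seeing the data. The members and lists were chosen with earlier results of these data known. Named genes are the 9 members and, of each further list, up to 3 changed genes each way by lowest p and genes not detected; *Irx5*, *Id4*, *Cntnap1*, *Tbx18*, *Cacna1d*, *Bmp4* and *Gjc1*, which did not pass, *Tbx4*, *Irx1*, *Irx2* and *Irx6*, which were under the filter, and the markers of other cell types named were chosen outside this rule, after their values were seen. The 2 genes most like each changed member were to be named, but no member changed.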

Additional observations from a re-analysis of the deposited data

Results flagged for a closer look

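Among 23 groups of 6 libraries examined for the 9 members and the HCN shares, 1 had a library far from the rest by Dixon's ratio, where chance gives about 1 in 20 groups, or 1.15. *Shox2* in control replicate 3 was 2.52 normalized CPM, against 1.36 to 1.76 in the other controls. Control replicate 3 was also the library with the highest *Hcn4*.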

How the results depend on the processing

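Under the other settings, members that changed remained 0 of those tested except with DESeq2, which called 1 (*Hcn2*, log2 fold change 0.67), and when a library was left out (0 to 1, the 1 being *Hcn2* without iNICD replicate 1). All changed genes numbered 558, 1059 with DESeq2, 6 in males only, and 351 to 796 with a library left out, lowest without iNICD replicate 1 and highest without control replicate 5. The paper used littermate controls, and whether the numbers shared by controls and iNICD mice pair the libraries was not settled. Deviations of same-numbered libraries correlated between -0.149 and 0.425. By replicate number, controls 1, 5 and 6 were closest to the iNICD library of their own number, and controls 2, 3 and 4 were not. A fit with the replicate number as a block gave 468 changed genes and 0 members, and one with the number in the descriptions 421 and 0. *Hcn2* had a log2 fold change of 0.65 and *Tbx3* one of -0.30 under both (edgeR adjusted p of *Tbx3* 0.257 and 0.209, unadjusted 0.0414 and 0.026), and *Erbb4* lost its call in both (edgeR adjusted p = 0.0517 and 0.117) and *Scn10a* in the first (edgeR adjusted p = 0.11).

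The log2 fold change of *Irx3* turned to 0.00093 with sex as a covariate and that of *Id2* to 0.043 in females only. With a library left out, log2 fold changes ranged from 0.58 to 0.80 for *Hcn2*, from -0.23 to -0.077 for *Id2*, from -0.41 to -0.21 for *Tbx3*, from -0.41 to 0.19 for *Irx3* and from -0.38 to 0.092 for *Shox2*, and differences in mean log2(normalized CPM + 1) from 0.17 to 0.32 for *Cntn2*, from -0.045 to 0.034 for *Hcn3*, from -0.19 to 0.058 for *Irx3*, from -0.26 to 0.014 for *Shox2* and from -0.35 to -0.17 for *Tbx3*. Differences in HCN shares ranged, in percentage points, from 3.80 to 8.03 for *Hcn2*, from -1.44 to -0.561 for *Hcn3* and from -7.05 to -2.36 for *Hcn4*. The cause of these shifts was not tested. *Isl1*, *Hcn3* and *Cntn2* had at most 18 counts in any library, and the part of depth in their spread was not tested.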

Other observations

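*Tbx4*, a T-box gene of the limb that lay under the filter, had 1 count over the 6 control libraries and 19 over the 6 iNICD libraries, and was seen in every iNICD library; it was named after its values were seen, so no test is given.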
